A study of Macaca fascicularis with 2 samples.

Results

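PRG4-positive cells were taken as cells of the pooled articular cartilage (AC) and nucleus pulposus (NP) library that carried 1 sample tag, fewer than 5 reads of KRT19 and at least 100 PRG4 reads per 1000000 reads of the cell (rpm). PRG4 encodes lubricin, and KRT19 is a keratin of notochordal NP cells. The rule took 5269 cells, out of 5311 with 1 tag and fewer than 5 KRT19 reads and 5723 in all. The cells were thus selected on their measured PRG4 and KRT19 reads, and PRG4 values are given as a description with no test.

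The cells came from wild type male cynomolgus monkeys of 3 years of age. AC of the femoral condyle and NP of the lumbar disc were digested with collagenase, the cells were marked with sample tags through biotinylated surface proteins, and all were sequenced together by TAS-seq, a whole-transcriptome bead method. The labels list 3 tissue samples, AC3, NP3 and AC4, from 2 monkeys, whereas the cells carried 4 tags, A951 to A954, and no source used here pairs a tag with a tissue or an animal. The 4 tags are thus parts of 1 library, not replicates of a tissue, and no p-value is given. Per PRG4-positive cell, the median was 199961 reads and 3826 genes detected, and the depth ranged from 24907 to 1649570 reads per cell.

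Lubricin is a secreted, heavily glycosylated mucin-like protein that coats the surface of joint cartilage and lowers friction there. It is made by chondrocytes of the superficial zone and by lining cells of the synovium, and it has also been described in the intervertebral disc. Clusterin (CLU), a secreted chaperone, and matrix Gla protein (MGP), an inhibitor of calcification, are abundant products of cartilage and were the other genes used to label these cells.

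All 5723 cells of the library had PRG4 reads, so the threshold of 100 rpm did not separate cells with PRG4 from cells without it. Among cells with fewer than 5 KRT19 reads, 99.2% reached 100 rpm (95% exact binomial interval 98.9 to 99.4), 74.8% reached 1000 rpm (73.7 to 76.0) and 36.4% reached 10000 rpm (35.1 to 37.7). Among the 363 cells with 5 or more KRT19 reads, which are notochordal by that gene, 94.2% also reached 100 rpm, but only 6.06% reached 1000 rpm (3.84 to 9.03) and 2.75% reached 10000 rpm (1.33 to 5.01). A level of 100 rpm or slightly more was thus shared with KRT19-positive cells at about the same depth (medians of 172935 and 199212 reads), so lubricin expression cannot be read from it. Its source was not tested. The name PRG4-positive therefore stands for the rule, and levels of 1000 rpm or more were found in few KRT19-positive cells, 22 of 363. These intervals, like all those below, cover counting error only, because reads were counted without molecular identifiers and PCR copies are not independent.

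The levels spread widely. PRG4 in the cells with fewer than 5 KRT19 reads ranged from 27.2 to 199665 rpm, with a median of 5424 rpm and quartiles of 968 and 16315 rpm. In the KRT19-positive cells the median was 174 rpm and the quartiles were 139 and 222 rpm. The distribution had a narrow lower peak, which lay over that of the KRT19-positive cells, and a broad upper part from about 1000 rpm. Just outside the threshold were cells of 98.6, 98.9 and 99.4 rpm, with 23, 20 and 8 PRG4 reads, and just inside were cells of 100.5, 100.5 and 100.8 rpm, with 16, 9 and 10 reads. No gap in the values lay at the threshold.

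**Figure D1:**
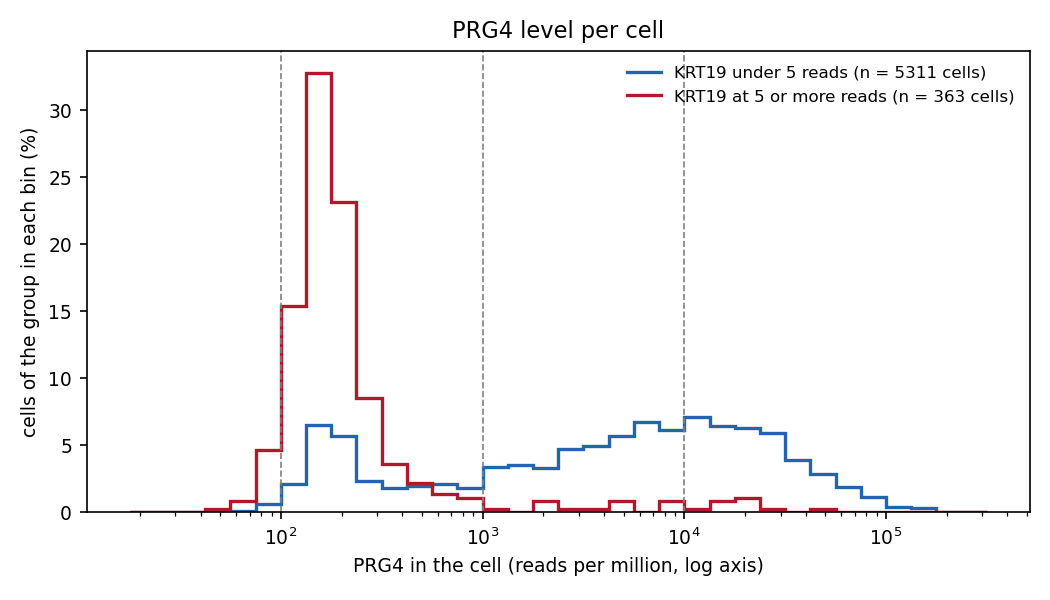
PRG4 level of each cell in rpm on a log axis, as the percentage of cells in each bin, for cells with fewer than 5 KRT19 reads (blue, n = 5311) and with 5 or more (red, n = 363). Dashed lines mark 100, 1000 and 10000 rpm. The narrow peak of the KRT19-positive cells, with a median of 174 rpm, lies above the 100 rpm line and over the lower peak of the other cells.

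The PRG4-positive cells were therefore divided at 1000 and 10000 rpm. The low class (100 to under 1000 rpm) held 1294 cells, the middle class (1000 to under 10000 rpm) 2044 cells and the high class (10000 rpm or more) 1931 cells, and 42 further cells lay below 100 rpm. In the high class PRG4 alone took 2.93% of all reads, against 0.454% in the middle class and 0.0300% in the low class. The classes had nearly equal depth, with medians of 198783, 200465 and 200397 reads and of 3840, 3829 and 3816 genes in the low, middle and high class.

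Each of the 4 tags held cells of every class. The high class made up 33.1% of the cells of tag A951 (305 of 921), 31.4% of A952 (270 of 861), 45.0% of A953 (619 of 1377) and 34.2% of A954 (737 of 2152). A953 had the highest share of the 4 tags, which is given as a description. The low class showed the reverse order, with 27.8% in A951, 31.9% in A952, 18.4% in A953 and 23.7% in A954. Tags A951 and A952 held nearly all KRT19-positive cells (76 and 271, against 6 in A953 and 10 in A954), yet the high class had nearly the same share in A951 and A954. In A951 and A952 the KRT19-positive cells had median PRG4 levels of 167 and 173 rpm. The 6 KRT19-positive cells of A953 had a median of 16782 rpm, 4 of them at 10000 rpm or more, and the 10 of A954 a median of 435 rpm, 4 of them at 1000 rpm or more, so the level shared with KRT19-positive cells rests on A951 and A952.

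**Figure D2:**
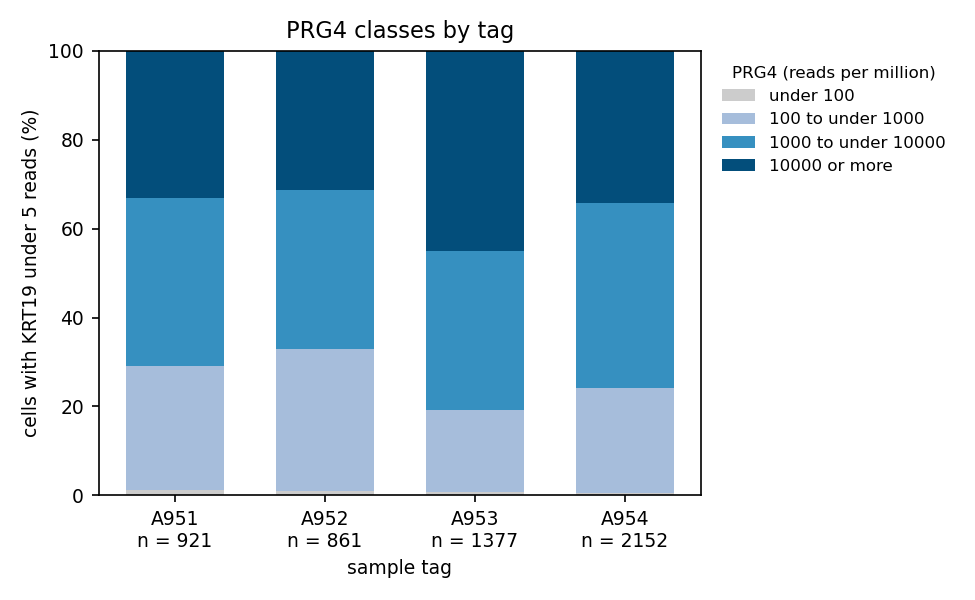
Share of the cells with fewer than 5 KRT19 reads in each PRG4 class, in percent, for the 4 sample tags with the number of cells under each bar. The class of 10000 rpm or more is widest in A953, at 45.0%, and lies between 31.4% and 34.2% in the other tags.

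Because no cell had 0 PRG4 reads, a comparison with PRG4-negative cells could not be made, and the high class was compared with the low class instead. This comparison was chosen after the data were seen. Each of 1291 low cells was paired with a high cell with a similar number of genes detected (means of 3899 genes on both sides), and the reads of each side were pooled. Of 9495 genes detected in 10% or more of either group of cells, PRG4 and KRT19 left out, 267 (2.81%) were at least 2-fold higher and 454 (4.78%) at least 2-fold lower in the high class. The direction was the same in all 4 tags for 216 and 361 of these (2.27% and 3.8% of the genes measured). The median log2 ratio of all genes measured was 0.07.

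The label's own markers did not separate the classes by 2-fold. CLU had 10113 rpm in the high class and 7707 rpm in the low class (log2 ratio 0.39), and every cell of both classes had at least 5 CLU reads. By tag, the CLU level in high cells was 9003, 9264, 10001 and 10605 rpm in A951 to A954, against 5610, 6535, 10391 and 8262 rpm in low cells. High and low cells overlapped across tags, and in A953 the order was turned (log2 ratio -0.06). MGP had 8713 rpm in the high class and 4483 rpm in the low class (log2 ratio 0.96), with 6078, 6646, 10735 and 9300 rpm in the high cells of A951 to A954 against 3992, 3908, 8407 and 2919 rpm in the low cells. MGP was higher in the high class in all 4 tags, most in A954 (log2 ratio 1.67) and least in A953 (0.35), and the median cell had 6432 rpm against 2615 rpm. Leaving out A953 raised the MGP ratio to 1.21 and leaving out A954 lowered it to 0.64 (log2), and the ratio passed 2-fold in 5 of 20 other settings.

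Chondrocyte genes were read next. COL2A1, the major collagen of hyaline cartilage, had a median of 13592 rpm in high cells, 23698 rpm in low cells and 440.03 rpm in the KRT19-positive cells, without matching. Its presence did not tell cells apart, since every cell of all 3 groups had at least 5 COL2A1 reads. ACAN, the core protein of aggrecan, had medians of 3015 and 4234 rpm in high and low cells but 10264 rpm in the KRT19-positive cells, and SOX9, the transcription factor of the chondrocyte lineage, medians of 134, 65.5 and 534 rpm. COL2A1 was thus the gene of the 3 whose level was higher in both classes than in KRT19-positive cells. Defining leukocyte and endothelial genes were near 0, with PTPRC at 0.435 and 1.15 rpm, PECAM1 at 0.347 and 0.933 rpm and VWF at 1.39 and 1.30 rpm in the high and low class. None of the 1291 high cells had 5 or more PTPRC or PECAM1 reads. This bounds only the share of cells that reach 5 reads of these genes (up to 0.285%, exact binomial), not the share of leukocytes or endothelial cells. CD68, a lysosomal protein of macrophages that other cells also make, had 17.3 against 11.5 rpm and was higher in the high class in every tag.

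The genes that were most higher with PRG4 encoded secreted and surface regulators. SEMA3D, a secreted semaphorin that guides migrating cells and axons, had 141, 135, 59.9 and 237 rpm in the high cells of tags A951 to A954 and 2.53, 6.35, 11.6 and 13.2 rpm in the low cells. The tags did not overlap between the classes, and the pooled level was 16.2-fold higher (152 against 9.38 rpm, log2 ratio 4.02). SEMA3D was named for its large ratio with the same direction in every tag, which makes tags without overlap likely. BMPER, CRTAC1, COL1A1 and SPP1 below were likewise named for large ratios. How many of all genes measured had tags without overlap was not counted, so these separations are a description. At least 5 SEMA3D reads were present in 33.4% of high cells (30.8 to 36.0) and in 2.94% of low cells (2.09 to 4.02). The related gene SEMA3A had 309 against 42.6 rpm, and 66.0% of high cells had at least 5 reads against 17.8% of low cells.

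BMPER, a secreted modulator of bone morphogenetic proteins (BMPs), had 127, 133, 245 and 76.8 rpm in high cells of A951 to A954 and 8.27, 5.04, 28.3 and 9.53 rpm in low cells, again with no overlap. SULF2, an extracellular sulfatase that trims heparan sulfate, had 271, 281, 504 and 315 rpm against 39.0, 38.5, 59.0 and 39.6 rpm. Its log2 ratio was nearly the same in every tag, from 2.80 to 3.10. SULF2 was also the most widespread of the 15 largest increases, with at least 5 reads in 72.1% of high and 20.9% of low cells.

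The other large increases ranged from widespread to held by few cells. ASPN, a small leucine-rich protein that binds collagen, had 412 against 44.8 rpm, with at least 5 reads in 40.2% of high cells, and NELL2, a secreted thrombospondin-like protein, had 69.9 against 5.49 rpm (log2 ratio 3.67), with at least 5 reads in 24.7%. CCND1, the cyclin of G1 progression, had 44.1 against 4.63 rpm, and F5, coagulation factor V, 22.4 against 0.978 rpm, the largest increase with the same direction in every tag (log2 ratio 4.52). F5 reads of 5 or more were found in 8.60% of high cells. CD74, the invariant chain of class II molecules, had 51.2 against 4.78 rpm, but 60.4% of its reads in the high class came from 1% of the cells, and SOST, a WNT antagonist, likewise rested on few cells (39.2 against 3.56 rpm, at least 5 reads in 8.60% and 2.09% of cells). NDNF, TMEM26, COL5A3, PSD and PTPRB were also among the 15 largest increases, at 4.20 to 17.5 rpm in the high class and 0.496 to 2.01 rpm in the low class. The top 1% of cells held 87.6% of the PTPRB and 77.8% of the COL5A3 reads of the high class. In the middle against the low class, the COL5A3 log2 ratio was 0.46. NDNF, TMEM26, PSD and SOST had reads in 5.27%, 7.44%, 8.99% and 7.75% of low cells. These 4 genes thus counted as measured only through the high class, where they were high.

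The largest decreases included secreted factors and mineralization genes of the low class. CNMD encodes chondromodulin, an inhibitor of vessel growth in avascular cartilage. Its level was 9.31, 22.7, 14.2 and 10.4 rpm in the high cells of A951 to A954 and 757, 558, 827 and 442 rpm in the low cells. The pooled level was 40.5-fold lower (15.3 against 622 rpm), and 4.49% of high cells had at least 5 reads against 56.3% of low cells. CCDC80, a matrix-bound secreted protein, had 21.9 against 489 rpm, and FGFBP2, a carrier of fibroblast growth factors, 10.2 against 266 rpm, with at least 5 reads in 7.59% and 3.56% of high cells and 51.8% and 30.1% of low cells.

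IL17B, a cytokine of the interleukin 17 family, showed the largest decrease with the same direction in every tag, with 1.37, 1.54, 1.29 and 1.26 rpm in the high cells of A951 to A954 and 493, 392, 1043 and 158 rpm in the low cells (386-fold, log2 ratio -8.59). It was however concentrated in few low cells, since 11.9% of them had at least 5 reads. IBSP, a bone matrix protein, had 0.513 against 118 rpm, with 86.1% of the low-class reads in 1% of the cells. ALPL, the phosphatase that removes pyrophosphate at sites of mineralization, had 0.548 against 14.5 rpm with 94.8% of the reads in 1% of the cells. SMPD3 and PHOSPHO1, both enzymes needed for matrix mineralization, had 0.165 against 8.09 rpm and 2.00 against 44.8 rpm. The actin-severing protein SCIN had 4.19 against 66.6 rpm, and BMP3, GFRA3, F3, PRKG2, RFTN1 and ADPRHL1 had 0.535 to 2.22 rpm in the high class and 12.0 to 36.0 rpm in the low class. IBSP, ALPL, SMPD3, PHOSPHO1, BMP3 and GFRA3 had reads in under 10% of high cells and counted as measured only through the low class.

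**Figure D3:**
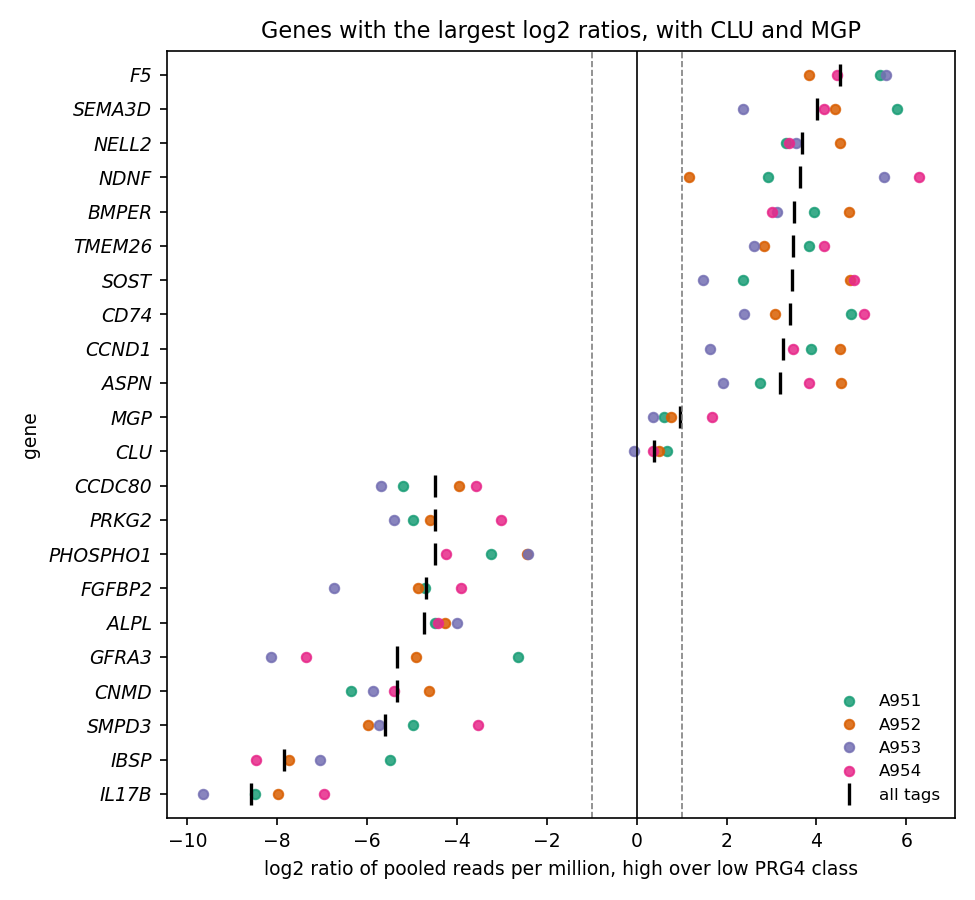
Log2 ratio of pooled rpm, high over low PRG4 class, for the 10 largest increases and the 10 largest decreases with the same direction in every tag, and for CLU and MGP. Coloured points are ratios within each tag, black bars the ratio over all tags, and dashed lines mark 2-fold. The points of CLU and MGP lie from -0.06 to 1.67, with only MGP in A954 past 2-fold, and those of all other genes lie past 2-fold on 1 side.

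Genes associated with the superficial zone were counted as a list. This list, like the others, was chosen with earlier results of these data known, so its counts are a description. It holds CRTAC1, CILP and IGFBP6, which the paper named among marker genes of its AC-dominant cluster, from data that include this library. Of 18 genes measured, 7 were at least 2-fold higher in the high class and 1 was lower, beside 2.81% higher and 4.78% lower over all genes measured, and the median log2 ratio was 0.79, against 0.07 for all genes measured. The 7 were CRTAC1, SEMA3A, DKK3, GDF5, ISLR, TGFBI and PROCR, all higher in every tag. GDF5 had reads in 8.75% of low cells, so it counted as measured only through the high class. CRTAC1, a secreted acidic protein of cartilage, had 721, 647, 1109 and 1395 rpm in the high cells of A951 to A954 and 35.6, 27.1, 262 and 159 rpm in the low cells. The lowest tag of the high class lay above the highest tag of the low class, and 67.8% of high cells had at least 5 reads against 34.2% of low cells. TGFBI, a collagen-binding protein induced by TGF-beta, had 281 against 89.3 rpm, ISLR 163 against 48.2 rpm and PROCR, the protein C receptor, 596 against 280 rpm.

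Most other genes of the list did not pass 2-fold. VIT had 1096 against 635 rpm, IGFBP6 466 against 268 rpm, TNFAIP6 112 against 56.6 rpm and ABI3BP 318 against 208 rpm, each higher in all 4 tags. CILP, a matrix protein of the middle zone and of fibrocartilage, had 246 against 321 rpm with a mixed direction over the tags, and the cell surface receptor CD44 had 143 against 190 rpm. THBS4 was the 1 gene past 2-fold lower (44.7 against 117 rpm), with the opposite direction in A954.

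Genes known to regulate PRG4 were counted next. Of 20 measured, 1 was at least 2-fold higher, TGFB3, which encodes a TGF-beta ligand (54.8 against 18.4 rpm), and 2 were lower, PTH1R, the receptor of parathyroid hormone (71.9 against 242 rpm), and TGFBR1 (74.9 against 151 rpm), beside 2.81% higher and 4.78% lower over all genes measured. The median log2 ratio of the list was -0.17. The TGFBR1 ratio, -1.01 on the log2 scale, came under 2-fold in 15 of 20 other settings. CREB5, a transcription factor that drives Prg4 in superficial cells, had 226.5 against 226.6 rpm, ERG, a factor of articular chondrocytes, 173 against 118 rpm, and FOXO1 62.9 against 45.1 rpm. ERG and FOXO1 were higher in every tag but under 2-fold. NFATC1, a calcium-responsive transcription factor, had 385 against 706 rpm and was lower in every tag, also under 2-fold.

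Genes of type I, V and XII collagen were higher in the high class. Of 9 collagens measured, 5 were at least 2-fold higher with the same direction in every tag (COL1A1, COL1A2, COL5A1, COL5A2 and COL12A1), none was lower, and the median log2 ratio was 1.65. Over all genes measured, 2.27% were higher with the same direction in every tag. COL1A1, the main chain of type I collagen, had 1374, 1542, 476 and 677 rpm in the high cells of A951 to A954 and 119, 190, 119 and 253 rpm in the low cells. The tags did not overlap, but the typical cell hardly differed, since the median cell had 9.30 rpm in the high class and 8.88 rpm in the low class. The top 1% of cells held 41.9% of the COL1A1 reads of the high class and 67.4% of those of the low class. COL1A2 had 1566 against 274 rpm, with a median cell of 30.6 against 24.3 rpm. COL5A1 (295 against 93.7 rpm) and COL12A1 (178 against 49.8 rpm) had the same direction in every tag, and COL3A1 had 2304 against 1247 rpm (log2 ratio 0.89). The COL3A1 ratio was 1.15, 1.07, 1.96 and 0.18 in A951 to A954 on the log2 scale and came to 1.49 without A954, past 2-fold. COL14A1 (490.4 against 460.5 rpm) and COL16A1 (1635 against 1752 rpm) differed little, and COL6A3 had 102 against 135 rpm, lower in every tag.

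Of 18 cartilage matrix genes measured, 1 was at least 2-fold higher, the matrilin gene MATN4 (80.4 against 22.2 rpm), 3 were lower, beside 2.81% higher and 4.78% lower over all genes measured, and the median log2 ratio was -0.28. CHAD, a leucine-rich matrix protein that binds type II collagen, had 4975, 5439, 5374 and 4595 rpm in the high cells of A951 to A954 and 13847, 12730, 12534 and 12049 rpm in the low cells. This difference was seen in the typical cell, with medians of 3983 and 11201 rpm. UCMA had 12.7 against 79.0 rpm and FRZB, a secreted WNT antagonist, 1221 against 2985 rpm. COL2A1 was lower in every tag but under 2-fold (16438 against 26700.2 rpm, log2 ratio -0.70), as were COL9A1 (4155 against 7542 rpm), SNORC (2310.1 against 4074 rpm) and ACAN (3582 against 4650.2 rpm). HAPLN1, the link protein, had 2305 against 2107 rpm.

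The small leucine-rich proteoglycans moved in both directions. Of 9 measured, 4 were at least 2-fold higher with the same direction in every tag, beside 2.27% of all genes measured, and 2 were lower, beside 3.8%. LUM (403 against 136 rpm), OGN (530 against 208 rpm), ASPN and FMOD made up the 4. FMOD, which shapes collagen fibrils, was in every cell of both classes and had 9274 against 4568 rpm, just past 2-fold (log2 ratio 1.02, and 0.99 with pairs matched within each tag). OMD (22.2 against 104 rpm) and CHAD were lower. BGN (12161 against 11368 rpm) and DCN (4397 against 4243 rpm) differed little.

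Mineralization and hypertrophy genes past 2-fold were lower in lubricin-high cells, with the exception of SOST. Of 11 mineralization genes, 5 were at least 2-fold lower (SPP1, IBSP, ALPL, PHOSPHO1 and ENPP2) and SOST was higher, with a median log2 ratio of -0.31. Over all genes measured, 4.78% were lower and 2.81% higher. IBSP, ALPL and PHOSPHO1 had reads in 9.14%, 9.99% and 8.91% of high cells, so they counted as measured only through the low class. SOST had reads in 7.75% of low cells and counted only through the high class. The filter thus let these genes in through the class where they were high, and the counts are a description. The list sum was 10135 rpm in the high and 8346 rpm in the low class, of which MGP took 8713 and 4483 rpm. Of 7 hypertrophy genes, 5 were lower (SPP1, IBSP, ALPL, RUNX2 and PTH1R) and none was higher, with a median log2 ratio of -2.0, and SPP1, IBSP and ALPL are in both lists. Here too IBSP and ALPL were measured only through the low class, so this count and median are a description. SPP1, osteopontin, had 146, 76.4, 149 and 188 rpm in high cells of A951 to A954 and 1846, 2046, 2122 and 2575 rpm in low cells. The tags were well apart, yet the median cell had 17.3 rpm in the high class and 21.6 rpm in the low class, and 38.7% of the low-class reads came from 1% of the cells. RUNX2, the transcription factor of hypertrophy and bone, was low in both classes (2.03 against 8.13 rpm). The calcification inhibitors ANKH (879 against 759 rpm) and ENPP1 (128 against 159 rpm) differed by less than 2-fold.

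Of 16 proteases and inhibitors measured, 2 were at least 2-fold higher and 2 lower, beside 2.81% and 4.78% over all genes measured. TIMP3, a matrix-bound inhibitor of metalloproteinases, had 429 against 1844 rpm (log2 ratio -2.11), and the protease inhibitor SERPINE2 166 against 1313 rpm (-2.98), both lower in every tag. Median cells had 130 against 1288 rpm of TIMP3 and 18.4 against 445 rpm of SERPINE2, so most cells shared these differences. CTSK, a collagen-cleaving cathepsin, was higher (172 against 84.8 rpm). MMP3, stromelysin 1, was the most abundant of the list and had 11551 against 5909 rpm (log2 ratio 0.97), higher in every tag. MMP1 had 90.2 against 25.6 rpm, with 2 tags in each direction and a log2 ratio of 0.79 without A953. It rested on few cells, as the top 1% of cells held 78.7% of its reads in the high class and 88.2% in the low class.

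Of 13 BMP system genes, 4 were at least 2-fold higher and 1 was lower, beside 2.81% and 4.78% over all genes measured. GDF10, a BMP-like ligand, had 227, 223, 213 and 187 rpm in the high cells of A951 to A954 and 28.3, 27.3, 18.2 and 36.7 rpm in the low cells. High cells of the 4 tags were close to each other and about 7.16-fold above low cells when pooled. ID2, a target of BMP signalling, had 2415 against 1112 rpm and the joint morphogen GDF5 5.57 against 1.36 rpm, whereas the BMP antagonist CHRDL1 had 6.13 against 37.5 rpm. With reads in 8.75% of low cells, GDF5 counted as measured only through the high class. There 61.2% of its reads came from 1% of the cells, so the count of higher genes is a description. BMP4 was past 2-fold with 1 tag in the other direction (10.1 against 3.43 rpm).

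Of 10 WNT modulators, SFRP5 (71.7 against 689 rpm), SFRP1 (57.4 against 120 rpm) and FRZB were at least 2-fold lower with the same direction in every tag, and DKK3 (37.5 against 7.92 rpm) and AXIN2 were higher, AXIN2 with 1 tag in the other direction and a log2 ratio of 1.39, which came to 0.99 without A953. These counts, and those of the lists that follow here, stand beside 2.81% higher and 4.78% lower over all genes measured. Of 9 hedgehog genes, PTCH1, the receptor and target of the pathway, was lower (5.89 against 21.9 rpm) and none was higher, while GLI1 had 8.62 against 11.7 rpm. Of 11 TGF-beta response genes, 2 were higher (TGFBI and COL1A1) and 2 were lower, among them LTBP2 (9.43 against 45.3 rpm). The median of this list was -0.42.

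In each of the next lists a few genes passed 2-fold, against 2.81% higher and 4.78% lower over all genes measured, and a single gene past 2-fold is not read as a result about its list. Of 17 hypoxia genes, CA9 (114 against 35.7 rpm) and ANKRD37 (23.4 against 7.71 rpm) were higher, and the glucose transporters SLC2A1 (241 against 496 rpm) and SLC2A3 (17.1 against 44.6 rpm) with CA12 (2.37 against 12.5 rpm) were lower. Of 11 hyaluronan genes, the synthase HAS2 was lower (145 against 371 rpm) in every tag, ITIH5 was lower in 3 tags (log2 ratio -1.20, and -0.72 with pairs matched within each tag), and HYAL1 and HMMR were higher over all tags. HMMR was under 2-fold within each tag and lower in A954 (log2 ratio -0.74). Of 6 genes of secreted chaperones and complement, CD55, which protects cells from complement, was higher (3921 against 1800.5 rpm), and of 11 antioxidant and iron genes NQO1 was higher (46.8 against 13.9 rpm, log2 ratio 1.76, and 0.94 without A954). Of 11 immediate early genes FOS was higher (793 against 388 rpm, log2 ratio 1.03), which fell under 2-fold in 9 of 20 other settings.

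Against the same 2.81% higher and 4.78% lower over all genes measured, 1 or 2 genes per direction passed in most of the following lists. Of 11 inflammation genes, LIF was lower (242 against 600.5 rpm) and CXCL1 higher with 1 tag in the other direction (59.6 against 12.9 rpm). CXCL1 rested on few cells, as 96.7% of its reads in the high class came from 1% of the cells, and its log2 ratio of 2.21 was 4.75 without A953 and 1.14 with the high class taken from 30000 rpm. Of 15 progenitor surface markers, VCAM1, PDGFRB, CD34 and PROCR were higher and ALCAM was lower, VCAM1 and PDGFRB coming to log2 ratios of 0.74 and 0.96 without A953, and THY1 (366 against 362 rpm) and CD9 (847 against 852 rpm) differed little. Of 8 insulin-like growth factor genes, IGFBP3 (18.3 against 62.4 rpm) and IGFBP5 (131 against 328 rpm) were lower and IGFBP4 (15.6 against 7.03 rpm) was higher. Both IGFBP5 and IGFBP4 rested on A953, without which their log2 ratios were -0.27 and 0.02. Neither call matched the direction of most tags. IGFBP5 was lower only in A953 (log2 ratio -2.66), with ratios of 1.88 in A951, 0.22 in A952 and about 0 in A954, and IGFBP4 was higher only in A953 (1.13), with -1.29, -0.02 and -0.33 in A951, A952 and A954. At least 5 IGFBP5 reads were found in 25.2% of high and 14.4% of low cells. IGFBP4 also came under 2-fold with pairs matched within each tag (0.69). Of 5 proliferation genes, CENPF was higher (15.9 against 5.76 rpm) with 1 tag in the other direction, and its log2 ratio came to 0.31 with pairs matched within each tag. RRM2 was lower (8.66 against 22.9 rpm).

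**Figure D4:**
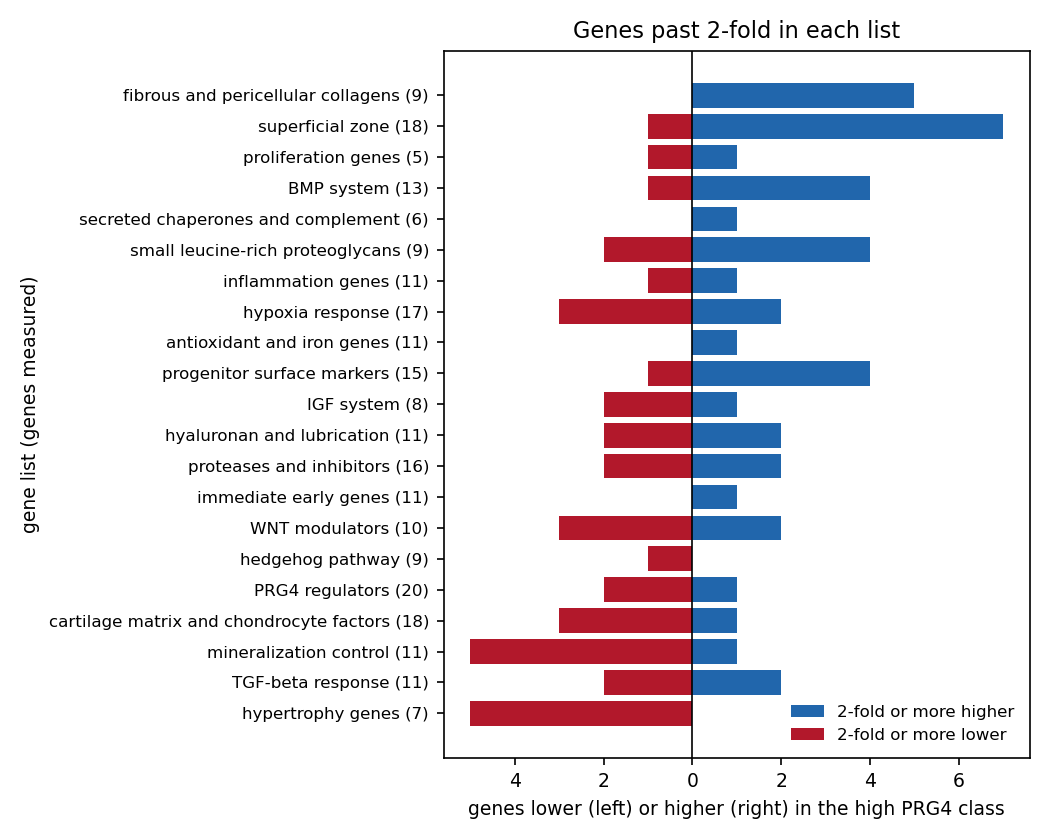
Number of genes at least 2-fold higher (blue, right) or lower (red, left) in the high than in the low PRG4 class, for 21 gene lists ordered by their median log2 ratio, with the number of genes measured in parentheses. Fibrous collagens, with 5 higher and none lower, are at the top and hypertrophy genes, with 5 lower and none higher, at the bottom.

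Markers of other cell types were read as whole lists, beside the same 2.81% higher and 4.78% lower over all genes measured. Synovial lining fibroblasts also make lubricin, and of 4 lining genes measured, CD55 was at least 2-fold higher and PDPN lower (176 against 966 rpm), with a summed level over the 9 listed genes in the table of 5214 rpm in the high and 4268 rpm in the low class, of which CD55 took 3921 and 1800.5 rpm. Of 5 general fibroblast genes, CD34 (24.8 against 8.42 rpm) and PDGFRB (28.1 against 13.8 rpm) were higher and APOD lower (116 against 320.2 rpm), with sums of 1302 and 1700 rpm. Of 4 tendon and ligament genes, FMOD and COL1A1 were higher and THBS4 lower, with sums of 10386 and 4912 rpm. Of 5 osteoblast genes, IBSP, ALPL, PHEX and SPP1 were lower and COL1A1 was higher. IBSP and ALPL were again measured only through the low class.

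The leukocyte list summed to 21.7 and 19.2 rpm, mostly CD68, with PTPRC lower among 2 genes measured, and the endothelial list to 11.8 and 11.3 rpm, mostly ESAM. Of 5 mural cell genes TAGLN was lower (25.9 against 273 rpm), with list sums of 88.2 and 325 rpm. The only adipocyte gene measured, LPL, had 85.5 against 99.6 rpm, and no erythroid gene was measured (sums of 0.253 and 0.0322 rpm). The notochordal list summed to 29.2 and 62.4 rpm, with NCAM1 the most abundant (21.1 and 26.0 rpm). Of its 5 genes measured, 3 were lower (TBXT, SRGN and C3orf49) and none was higher, and none of the 3 had the same direction in every tag. SRGN had 3.08 against 15.3 rpm and C3orf49 2.67 against 11.3 rpm. Without A952 the log2 ratios of TBXT and C3orf49 came to -0.41 and 0.12. TBXT, the defining notochordal factor, had 0.610 and 3.40 rpm, and the low-class value stood at 17.1 rpm in A952 and at 0.666 to 1.12 rpm in the other tags. With cells of 5 or more TBXT reads left out, 271 genes were higher and 459 lower. The part of these other cell types in the differences between the classes was otherwise not tested.

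Genes that differed between the high and low class, with CLU and MGP, were also read over finer bins of PRG4. Over 6 bins of PRG4, with medians of 176, 575, 1861, 5960, 17158 and 48290 rpm and without matching of cells, CRTAC1 was 103, 220, 437, 686, 1087 and 1367 rpm. SEMA3A was 28.0, 78.8, 109, 170, 285 and 433 rpm, and SULF2 29.3, 75.7, 109, 185, 323 and 494 rpm. These genes were higher in each successive bin. CHAD was 14048, 9724, 8856, 7387, 5543 and 3624 rpm, COL2A1 27807, 23924, 21496, 19526, 17175 and 12263 rpm and CNMD 776, 236, 96.8, 62.7, 17.6 and 5.91 rpm, each lower in every successive bin. MGP went from 4187 to 10144 rpm over the bins, whereas CLU was 6384 rpm in the first bin and between 9969 and 10994 rpm in the other 5. The lowest bins make up the low class and the highest bins the high class. The order from end to end thus largely follows from the choice of genes. How many of all genes measured change in such steps was not counted. Since each bin is also 1 pool of cells of 1 library, these orders are a description.

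**Figure D5:**
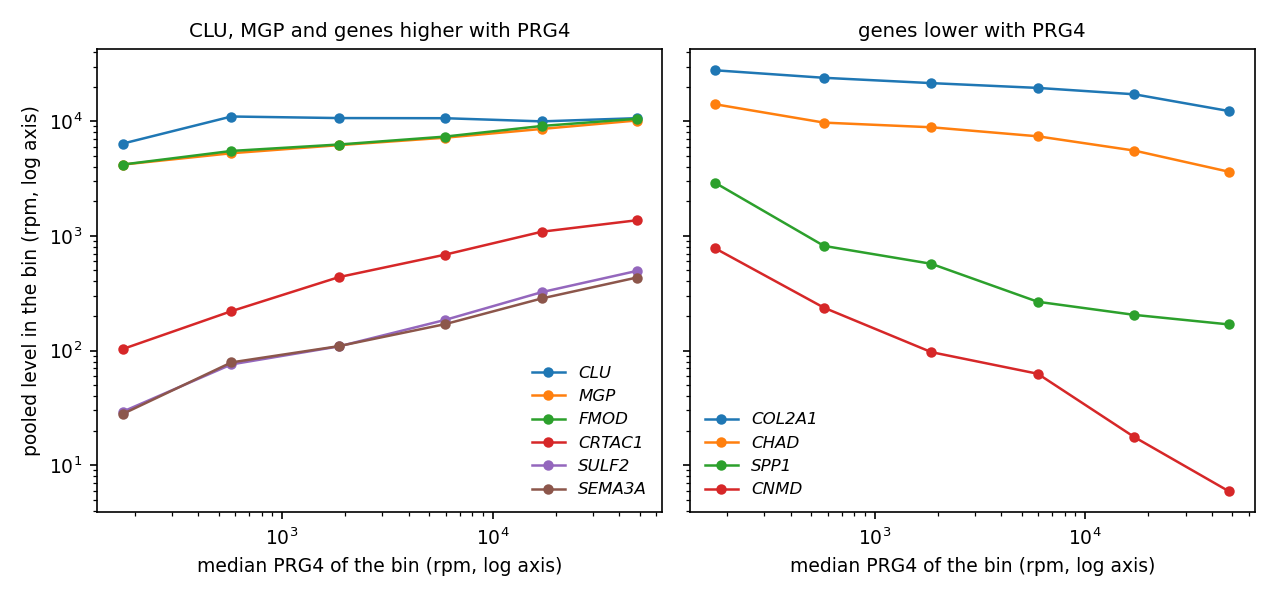
Pooled level in rpm against the median PRG4 of 6 bins of PRG4-positive cells, both on log axes, for CLU, MGP, FMOD, CRTAC1, SULF2 and SEMA3A (left) and for COL2A1, CHAD, SPP1 and CNMD (right). CLU is flat from the second bin on, CRTAC1 goes from 103 to 1367 rpm and CNMD from 776 to 5.91 rpm. Levels of different genes are not corrected for length and are not compared with each other.

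Compared with the low class in 1292 matched pairs, the middle class had 110 genes at least 2-fold higher and 229 lower. SEMA3D had 9.38, 45.4 and 154 rpm in the low, middle and high class without matching, SULF2 42.6, 156 and 373 rpm, IL17B 527, 16.5 and 1.53 rpm and CCDC80 489, 71.4 and 22.2 rpm. The middle class lay between the others for these 4 genes. It did not for CLU (7705, 10635 and 10161 rpm), MMP1 (25.6, 152 and 91.7 rpm) or IGFBP5 (328, 445 and 165 rpm). The 4 genes were named for their large ratios between the high and low class, which makes an intermediate middle class likely. How many of all genes measured had an intermediate middle class was not counted, so these orders are a description. The 42 cells under 100 rpm had fewer genes detected than the PRG4-positive cells (medians of 2624 and 3826). Against 41 PRG4-positive cells matched on genes detected, they differed by 2-fold or more in 1609 genes in one direction and 1654 in the other of 7810 measured (20.6% and 21.2%), a number of cells too small to name genes from.

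Cells with both ASPN and CILP at 100 rpm or more, a fibrocartilage-like combination, were examined for overlap. Of the 660 such cells, 659 were PRG4-positive and 55.2% were in the high class, so that they made up 18.9% of the high class (17.1 to 20.7), 12.3% of the middle class and 3.32% of the low class (2.42 to 4.45). By tag they were 6.23%, 8.52%, 16.3% and 30.0% of the high cells of A951 to A954. Since ASPN itself was higher with PRG4, this overlap is not independent of the comparison above. Pooled over tags, PRG4 was nearly the same in high cells with and without the pair (30756 and 28790.4 rpm). In A951 to A954 PRG4 was 35003, 29526, 31099 and 30476 rpm with the pair. Without the pair it was 31660, 29710, 32177 and 23864 rpm, so that the difference was widest in A954. Among high cells, those with the pair had more CRTAC1 (2120 against 865 rpm), LUM (835 against 284 rpm) and FMOD (12999 against 8384 rpm), and less COL1A1 (340 against 1011 rpm), NELL2 (29.8 against 83.3 rpm) and COL2A1 (10511 against 17419 rpm). Because A953 and A954 gave 101 and 221 of the 364 high cells with the pair, and A951 and A952 only 19 and 23, the contrast was also read within each tag. All 6 genes had the same direction in all 4 tags. LUM had 790, 438, 514 and 1017 rpm in the pair cells of A951 to A954 and 233, 179, 203 and 426 rpm in the other high cells. COL1A1 had 7.50, 886, 441 and 261 rpm against 1490, 1593, 510.1 and 1042 rpm, so that the difference was wide in A951 and A954 and small in A953. COL2A1 had 19011, 12086, 9770.0 and 10166 rpm against 20195, 21248, 16898 and 15149 rpm, with little difference in A951.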

How the data were processed

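The authors aligned reads with HISAT2 2.2.1, assigned them to genes with featureCounts 2.0.2, as the submitters' processing notes list, and summed reads per cell without molecular identifiers. The deposited matrix holds raw read counts for each gene in each cell. The genome build is not given in the sources used here. Another deposited matrix, whose 1358 columns match no sample label, and the tag library were not analysed here. The matrices share 15 cell numbers.

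Cells marked as doublets (42) or without a detected tag (7) were left out, and no doublet caller was run on the rest. Counts were divided by each cell's total and given as rpm, and for classes as pooled rpm. High and low cells were paired on genes detected within 5%, and log2 ratios compare the pooled levels, with a floor of 3 reads. A gene counted as measured when 10% or more of either group had a read, and "higher" or "lower" means at least 2-fold. A gene could thus be measured only through the class in which it was high, so counts of higher and lower genes are a description. The text names CLU and MGP, the 15 largest ratios in each direction with the same sign in all tags with at least 20 pairs, for each list the 3 largest ratios and 2 most abundant genes, and further members of the lists. Some genes that this rule names are not reported here. Of 375 genes over 31 lists, 56 were not among the genes counted. The members and the lists were chosen with earlier results of these data known. Shares have exact binomial 95% intervals. Python 3.11.15, numpy 2.4.6, scipy 1.17.1 and matplotlib 3.10.9 were used, and the calculation was tested on simulated data.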

Additional observations from a re-analysis of the deposited data

Results flagged for a closer look

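PRG4 was also found in cells that entered no comparison. The 42 cells marked as doublets had 6920 rpm of PRG4 when pooled, and the 7 cells with no detected tag had 18894 rpm. All of these cells had at least 100 rpm, and their medians were 3393 and 8679 rpm. With 7 cells the second value rests on very few cells, of which 3 had 10000 rpm or more.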

How the results depend on the processing

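The comparison with cells without PRG4 reads and its alternatives (thresholds of 50, 200 and 1000 rpm and changes of match, level, scaling, depth, filter or tags) could not be run, since no cell had 0 PRG4 reads. The alternative with cells under 100 rpm gave 1609 genes higher and 1654 lower in PRG4 cells. Those of the high against the low class were chosen after seeing the data. The share of PRG4 cells was 99.9% at 50 rpm, 87.7% at 200 rpm, 74.8% at 1000 rpm and 98.1% with downsampled reads (56076 per cell, 266 cells too shallow). It was 99.0% to 99.3% without each tag, and the share at 10000 rpm 33.4% to 37.8%, lowest without A953. Genes higher and lower in the high class numbered 117 and 198 with at least 5 reads for a detected gene (5762 measured), 131 and 252 with downsampled reads (7216 measured), 818 and 1176 with a read in at least 1% of cells (13675 measured), 587 and 704 with the high class from 30000 rpm, 110 and 229 for the middle against the low class, and 422 and 583 with the low class at 100 to under 300 rpm. Without each tag they numbered 300 to 337 and 460 to 558. Of 87 named genes past 2-fold, 51 stayed past it in the same direction under all 20 alternatives. The sign turned for log2 ratio of C3orf49 without A952 (0.12), log2 ratio of IGFBP5 in the middle against the low class (0.33) and log2 ratio of TBXT with TBXT under 5 reads (0.087), and the cause was not tested. Matched within each tag, they numbered 244 and 452. No paired analysis was possible because the 4 tags are parts of 1 expression library and no source ties a tag to an animal, so that pairs were formed between cells only.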

Other observations

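Cells with few genes detected held lubricin-high cells at about the same rate as the rest. Of 807 cells with fewer than 2500 genes detected, 38.3% (34.9 to 41.7) had 10000 rpm or more of PRG4, against 36.0% (34.6 to 37.4) of the 4504 others. The median share of mitochondrial reads per cell was 1.47% in matched high cells and 1.39% in matched low cells, over 13 mitochondrial genes. With only 1 library, and with tags that no source used here ties to a tissue, a lubricin-high cell of AC cannot be told apart from one of NP.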
